A study of Mus musculus with 8 samples.

Results

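The genes for the subunits of calcineurin, the isoforms of protein phosphatase 1 (PP1) and calcium/calmodulin-dependent protein kinase IV (CaMKIV) were followed from meiosis to the haploid phase of spermatogenesis, in wild type mice and in mice without the ubiquitin-conjugating enzyme HR6B. The set holds 10 of the 18193 genes with a probe set of their own, namely Ppp3ca, Ppp3cb, Ppp3cc, Ppp3r1 and Ppp3r2 for calcineurin, Ppp1ca, Ppp1cb, Ppp1cc and the inhibitor gene Ppp1r2 for PP1, and Camk4 for CaMKIV. All probe sets annotated to 1 of these genes were taken, which gave 29 of the 45037 probe sets on the array, and each of the 10 genes had at least 1. A further probe set is annotated to Ppp3r1 and Wdr92 together and is given apart from the others.

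RNA came from late spermatocytes, which are in meiotic prophase, and from round spermatids, which are the haploid products of meiosis, of Hr6b+/+ (wild type) and Hr6b-/- (Hr6b knockout) males on the FVB background, 4 to 5 weeks of age. All mice came from backcrosses of the Hr6b mutation to FVB, and the mutation is carried in every cell of the animal. The fractions were made by StaPut sedimentation and a Percoll gradient, and their purity was given as above 80% in both genotypes. The study asked how loss of HR6B affects gene expression, and it hybridised 2 arrays for each of the 4 groups, 8 in total. The number of mice behind each array was not given, so that p-values measure the spread between these arrays, which may be technical.

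Calcineurin is a serine/threonine phosphatase that is switched on by calcium and calmodulin. It pairs a catalytic A subunit with a calcium-binding B subunit. Ppp3ca and Ppp3cb encode the A subunits of most tissues and Ppp3r1 their B subunit, whereas Ppp3cc and Ppp3r2 encode forms enriched in testis that are needed for a normal sperm midpiece. PP1 catalytic subunits are nearly alike in sequence and take their specificity from many regulatory partners. Ppp1cc gives by alternative splicing a form that dominates in male germ cells, and male mice without this gene are sterile. Ppp1r2 encodes inhibitor-2, a small protein that holds PP1 inactive. CaMKIV is a kinase of spermatids that phosphorylates protamine 2, a protein that packs sperm DNA.

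Promoter windows were analysed for 6 of the 10 genes. The 250 bases before the start are shown for the genes of both calcineurin B subunits, because the sign of the shift in their balance was opposite to that of the A subunits, and for Ppp3cb, the A subunit gene with the largest fall in spermatids. They are written 5′ to 3′ along the gene, with each CpG dinucleotide, the site of DNA methylation, in capitals, and the build is GRCm38.p6 (Ppp3r2, chr4:49681984-49682233, minus strand; Ppp3r1, chr11:17159048-17159297, plus strand; Ppp3cb, chr14:20546574-20546823, minus strand).
Ppp3r2: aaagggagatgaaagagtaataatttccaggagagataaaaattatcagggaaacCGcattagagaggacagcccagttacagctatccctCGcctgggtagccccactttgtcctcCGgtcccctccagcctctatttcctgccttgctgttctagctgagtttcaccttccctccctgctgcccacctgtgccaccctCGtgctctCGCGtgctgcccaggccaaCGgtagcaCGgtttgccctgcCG
Ppp3r1: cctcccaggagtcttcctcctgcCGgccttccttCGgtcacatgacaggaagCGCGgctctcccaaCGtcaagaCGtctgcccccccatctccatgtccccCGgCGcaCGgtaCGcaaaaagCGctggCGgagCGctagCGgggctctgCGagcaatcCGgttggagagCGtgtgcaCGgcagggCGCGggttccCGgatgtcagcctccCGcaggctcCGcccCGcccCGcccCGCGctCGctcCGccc
Ppp3cb: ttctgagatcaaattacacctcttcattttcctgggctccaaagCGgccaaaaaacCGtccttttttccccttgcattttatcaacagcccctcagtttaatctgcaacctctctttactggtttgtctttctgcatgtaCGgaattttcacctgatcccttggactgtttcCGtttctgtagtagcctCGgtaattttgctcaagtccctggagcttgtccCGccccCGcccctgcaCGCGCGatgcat
The window of Ppp3r1 held 29 CpG dinucleotides, as many as or more than 94.1% of all promoter windows of this length. That of Ppp3r2 held 9 (62.2%) and that of Ppp3cb 10 (64.4%). The letters of the cAMP response element, TGACGTCA, which is bound by CREB and CREM, were found in none of the 6 windows and in 1.55% of all promoters. Its core, searched as TGACG or CGTCA so that either strand was covered, was found in the window of Ppp3r1, at base 67 of the sequence above, in none of the other 5 and in 17.8% of all promoters. A match of letters is a description of the sequence and not evidence of binding.

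Values are RMA signals, which the authors deposited as log2 values; they are printed below on the linear scale per array, and log2 fold changes are differences of group means. A call means an adjusted p (limma) under 0.05, adjusted over all 45037 probe sets. The files used here hold no detection calls, so how far a signal lies above background is not known and a fold against a low signal is a value and not a bound. A signal of 100 or more in at least 1 group was found for 19387 probe sets and for 18 of the 29 members, and signals below 100 are termed low. Levels of different probe sets are not compared, since each has its own sensitivity. The 2 arrays of a group had a Pearson r of 0.995 to 0.997, taken over probe sets, which do not count as replicates. The array labels were checked with Ube2b, the gene for HR6B, which had signals of 2855 and 3349 in wild type and 833 and 824 in knockout spermatocytes, and of 4599.5 and 4612 and 951 and 1061 in the spermatids. Of the spermatocyte markers, Sycp3 had a mean signal of 8831 in wild type spermatocytes and 2617 in wild type spermatids, and the spermatid marker Acrv1 had 129 and 8009. Forcing the arrays onto a common scale by cyclic loess, quantile or median normalization raised the median spermatid minus spermatocyte difference of expressed probe sets by 0.15 to 0.35 (log2) in wild type and by 0.27 to 0.57 in the knockout, and the knockout minus wild type difference in spermatids by 0.13 to 0.21. Small fold changes, and the split of calls into higher and lower, can therefore change with the scaling.

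Between the stages of wild type cells, 8 of the 29 probe sets were higher in spermatids, 12 were lower and 9 were not called; with equal medians 12 were higher and 10 lower. The called share was 69.0%, against 53.3% of all probe sets, of which 26% were higher and 27.3% lower. Among the 18 members with a signal of 100 or more in a group it was 77.8%, against 82.1% of all such probe sets, so that a call between stages was no more frequent here than elsewhere on the array. In the knockout, 6 were higher and 15 lower, 72.4% against 63% of all probe sets, of which 34.2% were higher and 28.7% lower, and with equal medians the members split into 11 and 11. Among the same 18 members 77.8% were called in the knockout, against 85.9% of all such probe sets. What set the members apart from one another was direction. Camk4 and the B subunit gene Ppp3r1 rose in spermatids, and the catalytic genes Ppp3cb, Ppp1ca and Ppp1cb fell. Ppp3ca was called lower in the knockout by all its probe sets, and in wild type by all but its main one. Ppp3cc and Ppp3r2 were called modestly higher in wild type and not in the knockout, and the probe sets of Ppp1cc and Ppp1r2 differed within the gene. In such bulk RNA, a change in the number of cells of a type and a change in RNA per cell cannot be told apart.

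**Figure D1:**
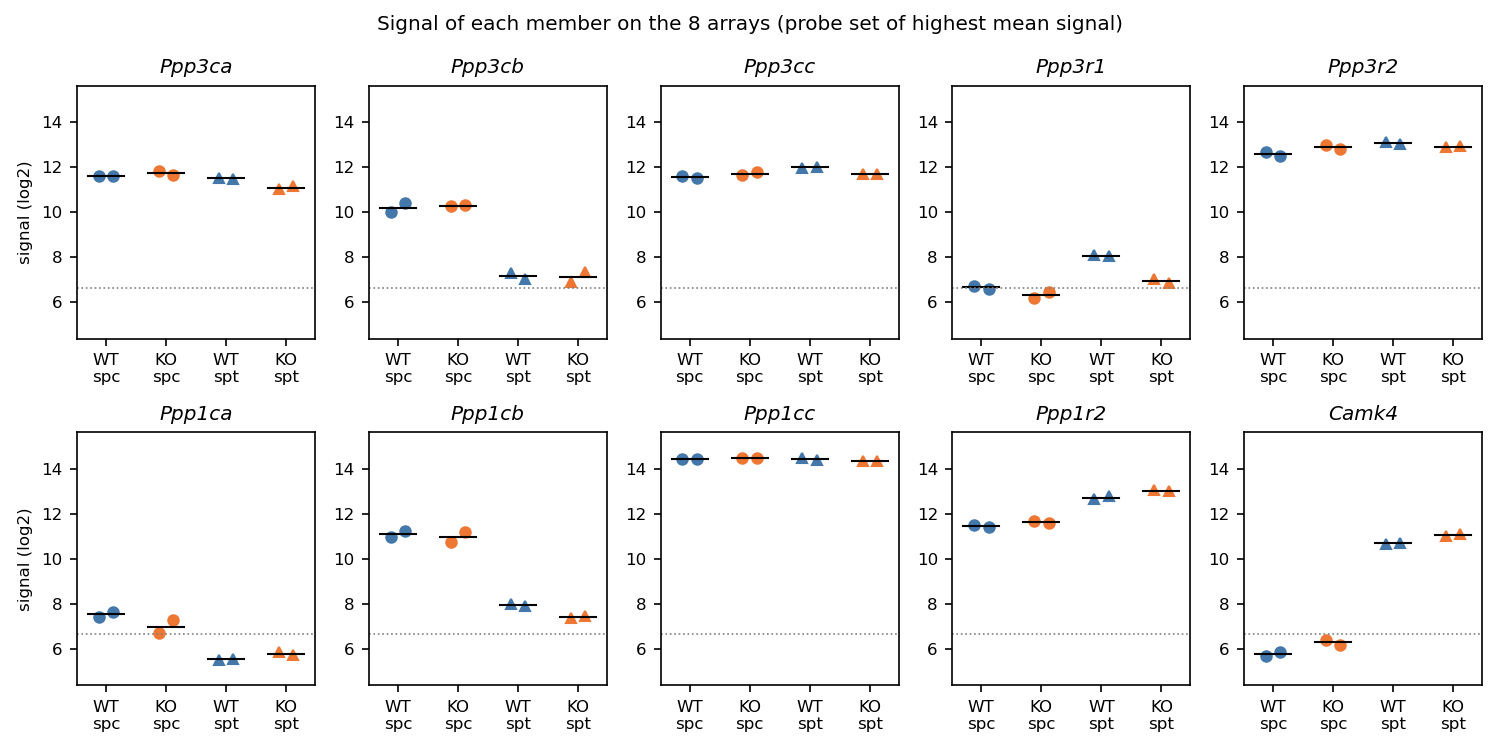
Signal (log2) on each of the 8 arrays for the probe set of highest mean signal of each gene, in wild type (WT, blue) and Hr6b knockout (KO, orange) spermatocytes (spc, circles) and spermatids (spt, triangles). Black lines are group means of 2 arrays and the dotted line is a signal of 100; heights are to be compared within a panel only. Camk4 lies far higher in all 4 spermatid arrays, Ppp3cb, Ppp1ca and Ppp1cb far lower, and Ppp1cc is level on the deposited scale. Ppp1cc was a called rise with equal medians and, in the knockout, a called fall with an intensity trend.

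Of the catalytic A subunits of calcineurin, Ppp3cb showed the largest change. Its main probe set had signals of 1023 and 1343 in wild type spermatocytes, 1228 and 1275 in knockout spermatocytes, 158 and 133 in wild type spermatids and 118 and 164 in knockout spermatids. All 4 spermatocyte arrays were above all 4 spermatid arrays, and the genotypes overlapped at both stages. The log2 fold change from spermatocytes to spermatids was -3.02 (standard error 0.18, adjusted p = 1.91e-07) in wild type and -3.17 (standard error 0.18, adjusted p = 1.20e-07) in the knockout, a fall of 8.11-fold and 8.98-fold. The other Ppp3cb probe sets had smaller stage differences. One, with signals of 472 and 532 in wild type spermatocytes and 355 and 291 in wild type spermatids, had -0.64 (adjusted p = 0.00227), a call lost under cyclic loess, and the third had -0.15 (adjusted p = 0.358) in wild type and -0.73 (adjusted p = 8.17e-04) in the knockout, the latter call being lost under all 3 scalings, with a value of -0.19 with equal medians. The last pair of Ppp3cb probe sets was low on all arrays, with signals of 9.14 to 22.6. One of these fell between the stages of the knockout, at -0.31, but its sign turned to 0.22 with equal medians.

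Ppp3ca encodes the alpha form of the A subunit. Its main probe set had 3130.5 and 3083 in wild type spermatocytes, 3602 and 3257 in knockout spermatocytes, 2952 and 2842 in wild type spermatids and 2078 and 2293 in knockout spermatids. The knockout spermatids had the lowest signals, below every other array, while the remaining groups lay close together. The stage difference was -0.10 (adjusted p = 0.487) in wild type and -0.65 (adjusted p = 6.36e-04) in the knockout, and the latter call was lost under cyclic loess and with equal medians. The other Ppp3ca probe sets fell in both genotypes, at -0.44 (adjusted p = 0.00691) and -0.95 (adjusted p = 1.15e-04) in wild type and -0.87 (adjusted p = 5.99e-05) and -1.33 (adjusted p = 7.89e-06) in the knockout. The first of these calls in wild type was lost under cyclic loess, with equal medians and without wild type spermatid replicate 2, where its values over all settings ran from -0.51 to -0.12.

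Ppp3cc, the A subunit gene of the testis, went the other way in wild type. Its main probe set had 3097 and 2949 in wild type spermatocytes and 3973 and 4154 in wild type spermatids, against 3227 and 3477 and 3363 and 3303 in the knockout. Both wild type spermatid arrays were above every other array. The rise in wild type was 0.43 (standard error 0.11, adjusted p = 0.00748) and was called in 16 of 16 alternative settings. In the knockout the difference was -0.01 (adjusted p = 0.959), but it became 0.50 under cyclic loess and 0.53 with equal medians, each a call in the other direction, so its sign in the knockout depends on the scaling. The difference between these stage effects was -0.43 (adjusted p = 0.137) and was not called. The second Ppp3cc probe set had 162 and 210.3 in wild type spermatocytes and 259.7 and 234 in wild type spermatids and was not called (log2 fold change 0.42 (adjusted p = 0.074) in wild type, -0.18 (adjusted p = 0.401) in the knockout). In wild type it was called under each of the 3 scalings, at up to 0.82.

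The gene of the calcineurin B subunit of most tissues, Ppp3r1, rose in spermatids. Its main probe set had 107 and 97.4 in wild type spermatocytes, 74.5 and 89.3 in knockout spermatocytes, 271 and 266 in wild type spermatids and 130.1 and 118 in knockout spermatids. The wild type spermatids stood far above all other arrays, and the knockout spermatids lay between them and the spermatocytes. The rise was 1.40 (standard error 0.13, adjusted p = 4.92e-06) in wild type and 0.60 (standard error 0.13, adjusted p = 0.00217) in the knockout, or 2.63-fold and 1.52-fold. A low Ppp3r1 probe set, with 31.1 and 39.6 in wild type spermatocytes and 54.1 and 60.8 in wild type spermatids, also rose, by 0.71 (adjusted p = 0.00616) in wild type and 0.76 (adjusted p = 0.00368) in the knockout, where the call was lost under cyclic loess. The probe set shared by Ppp3r1 and Wdr92 went from 15.0 and 15.5 to 182 and 249.5 in wild type and from 20.1 and 13.0 to 139 and 122 in the knockout, with log2 fold changes of 3.81 (adjusted p = 8.87e-08) and 3.01 (adjusted p = 4.70e-07). A probe set of Wdr92 alone had a profile over the 8 arrays close to that of the main Ppp3cb probe set, which was lower in spermatids. The root mean square difference of these 2 profiles was 0.08 (log2). Which of the 2 genes gave the shared signal was not tested.

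Ppp3r2, the B subunit gene of the testis, has 1 probe set. It had 6481 and 5822 in wild type spermatocytes, 8097 and 7172 in knockout spermatocytes, 8866 and 8462 in wild type spermatids and 7566 and 7748 in knockout spermatids. The wild type stages did not overlap and the knockout stages did. The log2 fold change was 0.50 (standard error 0.12, adjusted p = 0.0049) in wild type, called in 16 of 16 alternative settings, and 0.01 (adjusted p = 0.965) in the knockout, where cyclic loess and equal medians made it a rise that was called, at most 0.54. The difference between the stage effects of the genotypes was -0.49 (adjusted p = 0.123).

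Ppp1cb and Ppp1ca, the beta and alpha forms of the PP1 catalytic subunit, both fell. The main Ppp1cb probe set had 1979 and 2395 in wild type spermatocytes, 1739 and 2306 in knockout spermatocytes, 256 and 242 in wild type spermatids and 164 and 175 in knockout spermatids. Every spermatocyte array was above every spermatid array, and the knockout spermatids were the lowest. The log2 fold change was -3.13 (standard error 0.15, adjusted p = 4.41e-08) in wild type and -3.56 (standard error 0.15, adjusted p = 1.85e-08) in the knockout, falls of 8.75-fold and 11.8-fold. All 4 Ppp1cb probe sets fell in both genotypes, the other 3 at -2.87, -2.41 and -2.03 in wild type, although the last pair were low on all arrays. The single Ppp1ca probe set had 171 and 202 in wild type spermatocytes, 103 and 156 in knockout spermatocytes, 46.0 and 46.8 in wild type spermatids and 58.3 and 52.5 in knockout spermatids. It was low in spermatids of both genotypes, and it fell, with log2 fold changes of -2.00 (standard error 0.18, adjusted p = 4.38e-06) in wild type and -1.20 (standard error 0.18, adjusted p = 2.09e-04) in the knockout.

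Ppp1cc, the gene of the gamma form, had a level main probe set with 22017 and 21762 in wild type spermatocytes, 22564 and 23008 in knockout spermatocytes, 22368 and 21523 in wild type spermatids and 20585 and 20855 in knockout spermatids. The wild type stages overlapped. The log2 fold change was 0.00 (adjusted p = 0.981) in wild type and -0.14 (adjusted p = 0.279) in the knockout. With equal medians it was called a rise in both, at 0.32 and 0.40, the latter a turn of sign. With an intensity trend in the fit, the knockout difference was called lower instead. The highest signals on an array were between 32476 and 33756, so that this probe set lay in the upper part of the measured range. The second Ppp1cc probe set fell instead, from 363 and 419 to 197 and 186 in wild type and from 417 and 425 to 164 and 164 in the knockout, with log2 fold changes of -1.03 (adjusted p = 2.46e-05) and -1.36 (adjusted p = 2.46e-06). The stages did not overlap in it. Which splice form each probe set reads was not analysed here.

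The probe sets of the inhibitor gene Ppp1r2 moved in opposite directions. The one of highest signal had 2873 and 2707 in wild type spermatocytes, 3281 and 3067 in knockout spermatocytes, 6385 and 6950.2 in wild type spermatids and 8449 and 8100.4 in knockout spermatids, and it rose by 1.26 (standard error 0.11, adjusted p = 4.14e-06) in wild type and 1.38 (standard error 0.11, adjusted p = 1.76e-06) in the knockout. Another had 1119 and 1243 in wild type spermatocytes, 1059 and 949 in knockout spermatocytes, 179 and 153 in wild type spermatids and 136 and 117 in knockout spermatids, and it fell, at -2.83 (standard error 0.14, adjusted p = 3.53e-08) and -2.99 (standard error 0.14, adjusted p = 2.42e-08). In both, no spermatocyte array overlapped a spermatid array. A low pair of further probe sets had signals of 14.0 to 61.2. The stage call of one in the knockout (-0.33) turned to 0.21 with equal medians, and the other was called lower in wild type, at -0.48 (adjusted p = 0.0271), in 10 of 15 alternative settings. Copies of Ppp1r2 are annotated elsewhere in the genome, and the pair with probe sets of their own, chosen after their values were seen, are X-linked in RefSeq. Ppp1r2-ps7 went from 25.4 and 15.9 in wild type spermatocytes to 1294 and 1336 in wild type spermatids, and Ppp1r2-ps9 from 52.7 and 39.3 to 854 and 869, rises of 6.03 and 4.24 on the log2 scale. Whether the rising Ppp1r2 probe set also reads these copies was not tested, since probe sequences were not used here.

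Camk4 changed most of the 10 genes. Its main probe set had 51.9 and 57.7 in wild type spermatocytes, 85.1 and 73.1 in knockout spermatocytes, 1610.0 and 1669 in wild type spermatids and 2059.5 and 2177 in knockout spermatids. It was low in all spermatocytes and high in all spermatids, and at both stages the knockout arrays were above the wild type arrays. The log2 fold change was 4.90 (standard error 0.12, adjusted p = 1.53e-09) in wild type and 4.75 (standard error 0.12, adjusted p = 3.51e-09) in the knockout, or 30.0-fold and 26.9-fold, and it was called in 16 of 16 and 16 of 16 alternative settings. These folds are taken against low spermatocyte signals. The other 4 Camk4 probe sets were low on all arrays. One rose from 11.5 and 10.2 to 40.4 and 45.7 in wild type and from 10.9 and 12.5 to 59.1 and 92.7 in the knockout, by 1.98 (adjusted p = 7.68e-06) and 2.66 (adjusted p = 6.82e-07). The next rose by 0.40 and 0.58, calls lost under cyclic loess among other settings, and the last pair were not called in either genotype, except with equal medians, where 1 was called in wild type and both in the knockout.

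**Figure D2:**
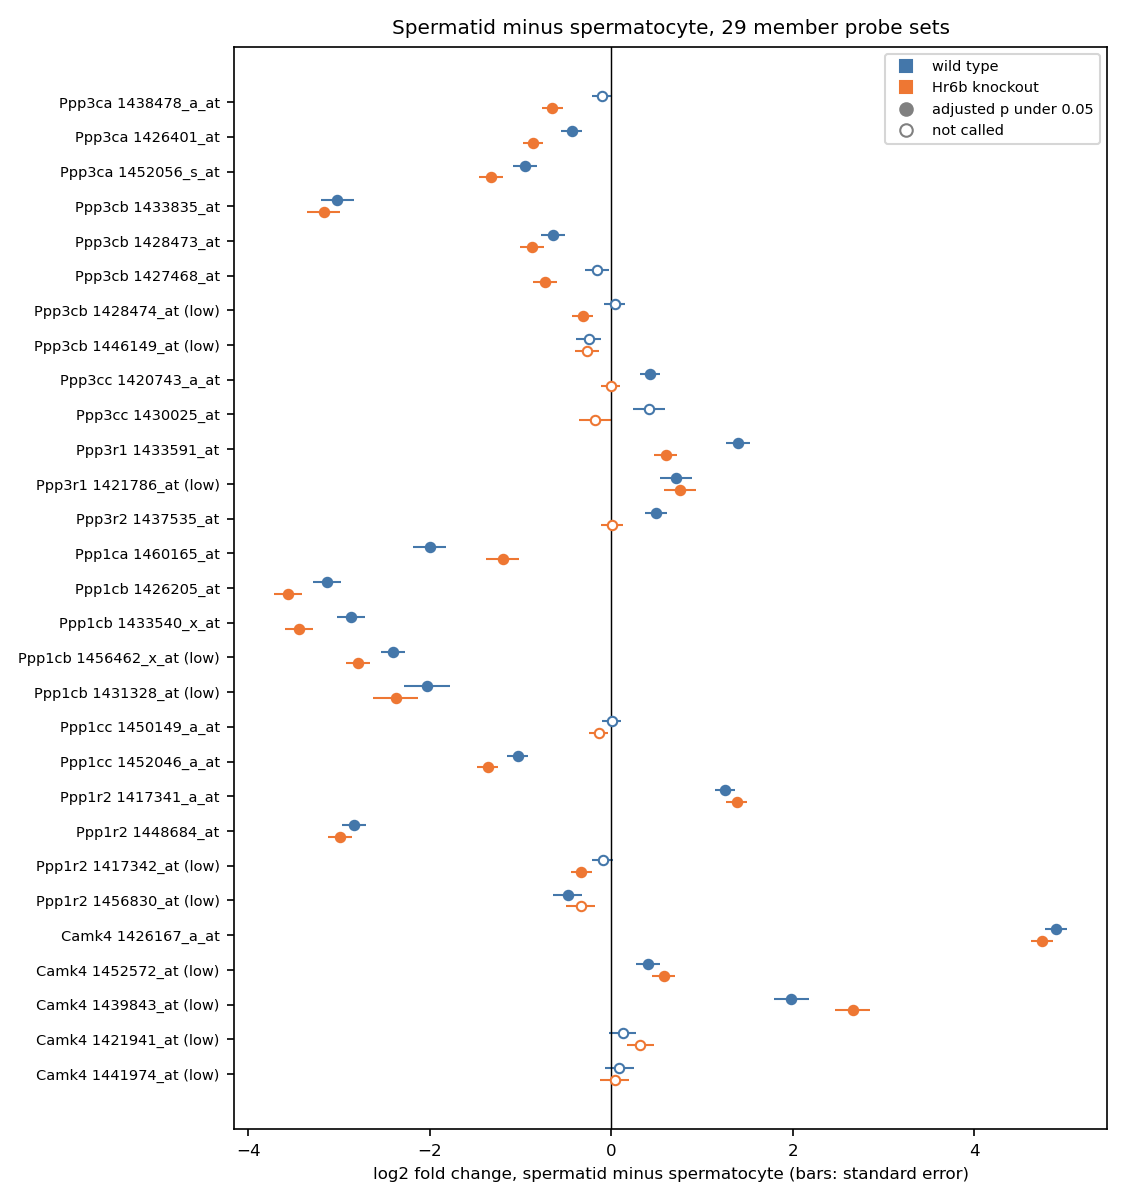
Log2 fold change, spermatid minus spermatocyte, of the 29 member probe sets in wild type (blue) and Hr6b knockout (orange); bars are standard errors from limma, filled points have an adjusted p under 0.05, and "low" marks a signal under 100 in all groups. Camk4 reaches 4.90 and Ppp1cb -3.56, and the Ppp1r2 probe sets lie on both sides of 0.

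Germ cell fractions can hold other cells, so marker lists were summed beside these stage differences. The summed signal of the 10 spermatid markers went from 5902 to 9403 in wild type spermatocytes to 161018 to 163836 in wild type spermatids, and 7 of 10 spermatocyte markers fell, their sum going from 29941 to 32299 to 14866 to 15547. The sum of 9 Sertoli cell markers was 2683 to 3345 in wild type spermatocytes and 577 to 672 in wild type spermatids, of which Clu alone had mean signals of 2385 and 242. Of the 9, 4 were lower in wild type spermatids and none was higher, namely Clu (-3.33), Cldn11 (-2.84), Rhox5 (-1.97) and Wt1 (-1.07). The defining Sertoli markers Sox9, Wt1, Gata4 and Fshr were under 100 in every group, and 7 of the 9 were under 100 in each group. The sums of 4 Leydig, 4 peritubular, 5 macrophage and 6 spermatogonia markers lay between 214 and 619.9 on all arrays. The peritubular sum was 236 to 254 in wild type spermatocytes and 348 to 361 in wild type spermatids. That of macrophages was 342 to 344 and 473 to 489. In each of these lists 2 markers were called higher in wild type spermatids and none lower, and 4 were called higher in the knockout. The Leydig sum was 259 to 306 and 214 to 223, and the spermatogonia sum 384 to 396 and 345 to 348. The part of such cells in the members' stage differences was not tested.

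A difference between paralogs within an array is unchanged by a constant shift of that array on the log2 scale. Scaling that depends on intensity, as in cyclic loess or quantile normalization, can change it. The balance of isoforms was compared by this difference between the 4 spermatid and the 4 spermatocyte arrays. An exact two-sided permutation test was used, whose smallest p is 0.0286, with Benjamini-Hochberg adjustment over the 6 pairs. Relative to Ppp3cb, Ppp3cc gained 3.30 on the log2 scale in spermatids (exact permutation p = 0.0286, adjusted 0.0343), or 9.87-fold. Relative to Ppp3ca it gained 0.59 (p = 0.0286 by the same exact test). Thus the balance of A subunit messages moved towards the testis form Ppp3cc. It did so by 3.45 in wild type and 3.16 in the knockout against Ppp3cb, and by 0.53 and 0.64 against Ppp3ca. With the mean of all probe sets of each gene the shifts over both genotypes were 1.10 against Ppp3cb and 0.89 against Ppp3ca.

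Among PP1 catalytic subunits, Ppp1cc gained 3.28 on Ppp1cb and 1.53 on Ppp1ca, and the balance of Ppp1cb against Ppp1ca moved by -1.75 (exact permutation p = 0.0286 and adjusted 0.0343 for each). No spermatid array overlapped a spermatocyte array in these 3 pairs. The gain of Ppp1cc on Ppp1ca was 2.00 in wild type and 1.06 in the knockout, and the move of Ppp1cb against Ppp1ca was -1.13 and -2.36. Ppp1ca was low in all spermatids, and these shifts are taken against it. With the mean of all probe sets of each gene, over both genotypes, Ppp1cc gained 0.97 on Ppp1ca and 2.19 on Ppp1cb, and Ppp1cb against Ppp1ca moved by -1.23. The second Ppp1cc probe set had stage differences of -1.03 in wild type and -1.36 in the knockout, where Ppp1ca had -2.00 and -1.20. By that probe set alone, Ppp1cc gained on Ppp1ca in wild type only. Under cyclic loess, Ppp1cc gained 1.52 on Ppp1ca and 2.80 on Ppp1cb, and Ppp1cb against Ppp1ca moved by -1.28. The difference of these shifts between the genotypes was not tested, since an exact permutation of 2 arrays against 2 allows no p below 0.333. The balance of the calcineurin B subunits, Ppp3r2 against Ppp3r1, had a shift of -0.75 that did not pass (exact permutation p = 0.114), with -0.90 in wild type and -0.59 in the knockout. The difference between the paralogs was 5.90 and 5.92 in wild type spermatocytes and 4.99 and 5.03 in wild type spermatids, and 6.33 and 6.76 and 5.86 and 6.04 in the knockout. The stages thus did not overlap within either genotype and overlapped when the genotypes were pooled, as in the test. Under quantile normalization it was -0.95 and passed (exact permutation p = 0.0286).

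**Figure D3:**
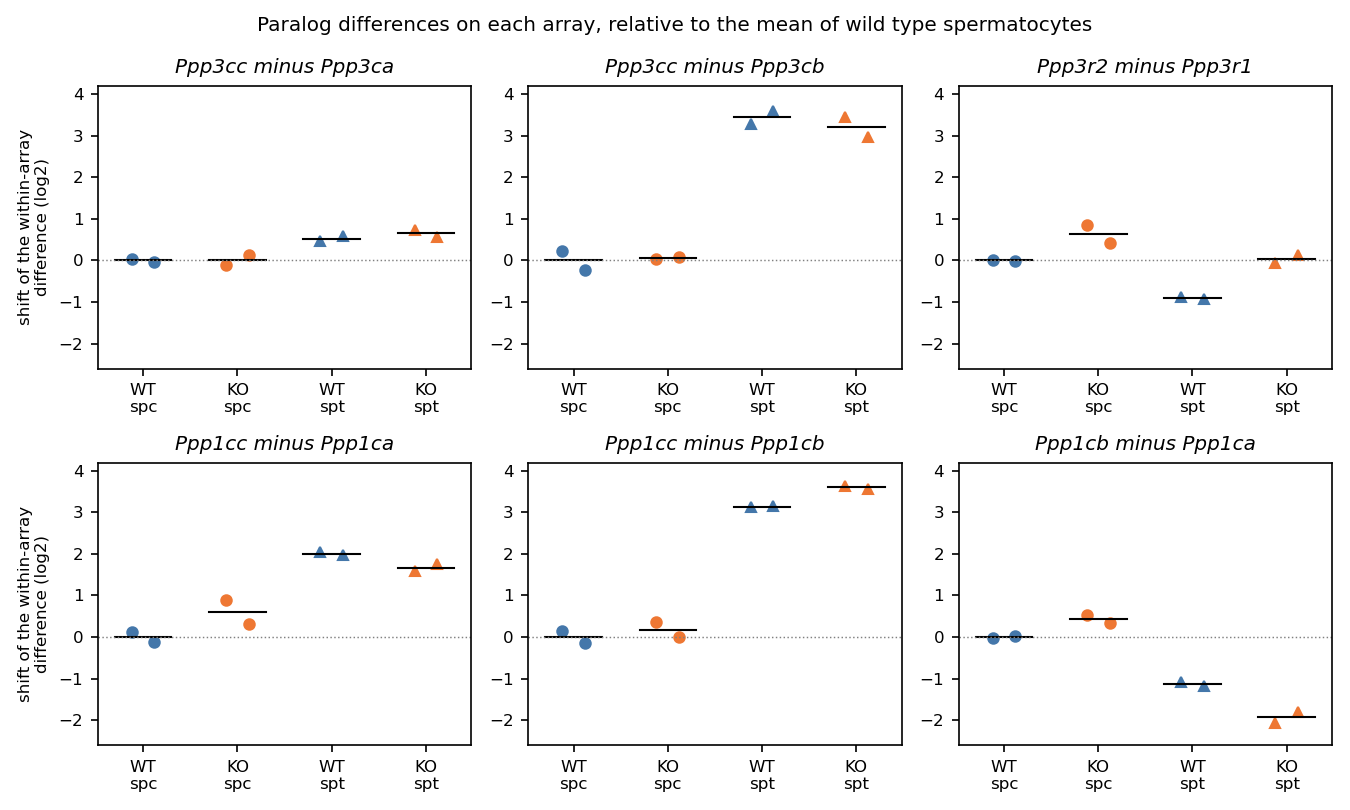
Difference between paralogs (log2, main probe sets) on each array, minus its mean in wild type spermatocytes, for wild type (WT, blue) and Hr6b knockout (KO, orange) spermatocytes (spc, circles) and spermatids (spt, triangles); black lines are means of 2 arrays. The 5 pairs of catalytic subunits separate the stages, with shifts of -1.75 and of 0.59 to 3.30, and the B subunit pair separates them within each genotype but not over both.

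Few of these genes were called between the genotypes. In knockout spermatocytes none of the 29 probe sets was called, against 1.59% of all probe sets and 3.24% of those with a signal of 100 or more in a group. An unadjusted p from limma under 0.05 was found for 5 of the 29, 3 higher and 2 lower, against 11% of all probe sets. All 5 were among the 18 members with a signal of 100 or more in a group. The share over all such probe sets was not taken by unadjusted p. The main Camk4 probe set had 0.53 (adjusted p = 0.0784 from limma) and was higher in both knockout arrays than in both wild type arrays. It was called, at an adjusted p of 0.045, when only probe sets with a signal of 100 or more on at least 4 arrays were tested. Ppp3r2 and a lesser Ppp3cb probe set had 0.31 (adjusted p = 0.334) and 0.40 (adjusted p = 0.252), and Ppp1ca and Ppp3r1 had -0.55 (adjusted p = 0.239) and -0.32 (adjusted p = 0.363). Markers of spermatids moved with the genotype here. In knockout spermatocytes 8 of the 10 spermatid markers were called higher, with a median log2 fold change of 1.83, and their summed signal was 25436 to 35228 against 5902 to 9403 in wild type. None of the 10 was under 100 in a group, and Acrv1 had mean signals of 224 and 129. Of the 6 spermatogonia markers, 4 of them low in every group, Dmrt1 was called lower, at -0.89 (adjusted p = 0.0173 from limma). Their sum was 288 to 298 in knockout spermatocytes against 384 to 396 in wild type. No marker of the spermatocyte, Sertoli, Leydig, peritubular or macrophage lists was called. The part of spermatid RNA in the Camk4 values was not tested. The copy Ppp1r2-ps7, which is no member, was higher in knockout spermatocytes, with 103 and 69.3 against 25.4 and 15.9 (log2 fold change 2.07 (adjusted p = 0.00267)).

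In knockout spermatids 1 of the 29 probe sets was higher and 4 were lower, 17.2% against 14.5% of all probe sets, of which 4.83% were higher and 9.63% lower. Among the 18 with a signal of 100 or more in a group, 4 were called (22.2%, against 27.1% of all such probe sets), a share no larger than elsewhere on the array. The 4 lower probe sets belonged to Ppp3r1, Ppp3ca and, with 2, Ppp1cb. Ppp3r1 was the firmest. Its main probe set fell from 271 and 266 in wild type to 130.1 and 118 in knockout spermatids, which was -1.12 (standard error 0.13, adjusted p = 7.87e-04) on the log2 scale or 2.17-fold, and the call was made in 16 of 16 alternative settings, with adjusted p-values of 4.09e-04 to 0.0103 and log2 fold changes of -1.19 to -0.93. The low Ppp3r1 probe set had 54.1 and 60.8 in wild type and 45.1 and 63.6 in knockout spermatids, which overlapped, and -0.10 (adjusted p = 0.77). The probe set shared with Wdr92 was lower in the knockout, at -0.71 (adjusted p = 0.0467). The probe sets of this gene thus gave unequal answers.

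The main Ppp1cb probe set was lower at -0.55 (adjusted p = 0.04) and its companion at -0.57 (adjusted p = 0.0347), in each case with no overlap between the genotypes. Both calls were lost under cyclic loess, with equal medians and without any 1 of the 4 spermatid arrays, and they were made in 9 of 16 and 10 of 16 alternative settings. The Ppp3ca call, -0.41 (adjusted p = 0.0411), was made in 5 of 16, and the other Ppp3ca probe sets had -0.36 (adjusted p = 0.0579) and -0.32 (adjusted p = 0.142). Ppp3ca and Ppp1cb are lower in spermatids than in spermatocytes, and of the 10 spermatocyte markers 2 were called in knockout spermatids, where their sum was 11700.3 to 12702 against 14866 to 15547 in wild type. Their part in these values was not tested. The sum of the spermatid markers was 199733 to 201702 against 161018 to 163836, and none of the 10 was called. Among the markers of other cells, Adgre1 of macrophages and Cldn11 of Sertoli cells were higher in knockout spermatids, at 0.61 (adjusted p = 0.00562) and 1.14 (adjusted p = 0.0415). The macrophage sum was 570.3 to 619.9 against 473 to 489 in wild type, and the Sertoli sum was 753 to 834 against 577 to 672. The part of such cells in the members' genotype differences was not tested.

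The probe set that rose was a low one of Camk4, with 40.4 and 45.7 in wild type and 59.1 and 92.7 in knockout spermatids, or 0.79 (adjusted p = 0.0236); the call was made in 11 of 15 alternative settings and was lost, among others, without knockout spermatid replicate 2. The main Camk4 probe set had 1610.0 and 1669 in wild type and 2059.5 and 2177 in knockout spermatids. These did not overlap, and the log2 fold change of 0.37 (adjusted p = 0.0749) from limma was not called, but it was under each of the 3 other scalings, at up to 0.60. Ppp1r2 had 0.31 (adjusted p = 0.0984) for its rising and -0.39 (adjusted p = 0.0866) for its falling probe set, the first of which was called under cyclic loess, at 0.53, and with equal medians, whereas its copies Ppp1r2-ps7 and Ppp1r2-ps9 were higher by 1.08 (adjusted p = 0.0123) and 0.91 (adjusted p = 0.0058). The testis forms gave no call, with -0.29 (adjusted p = 0.119) for Ppp3cc, -0.18 (adjusted p = 0.373) for Ppp3r2 and -0.08 (adjusted p = 0.671) for Ppp1cc. Cyclic loess made these -0.06, 0.03 and 0.07, again without a call. With an intensity trend in the limma fit, Ppp3cc was called lower (adjusted p = 0.0227), and Ppp3r2 and Ppp1cc were not called.

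**Figure D4:**
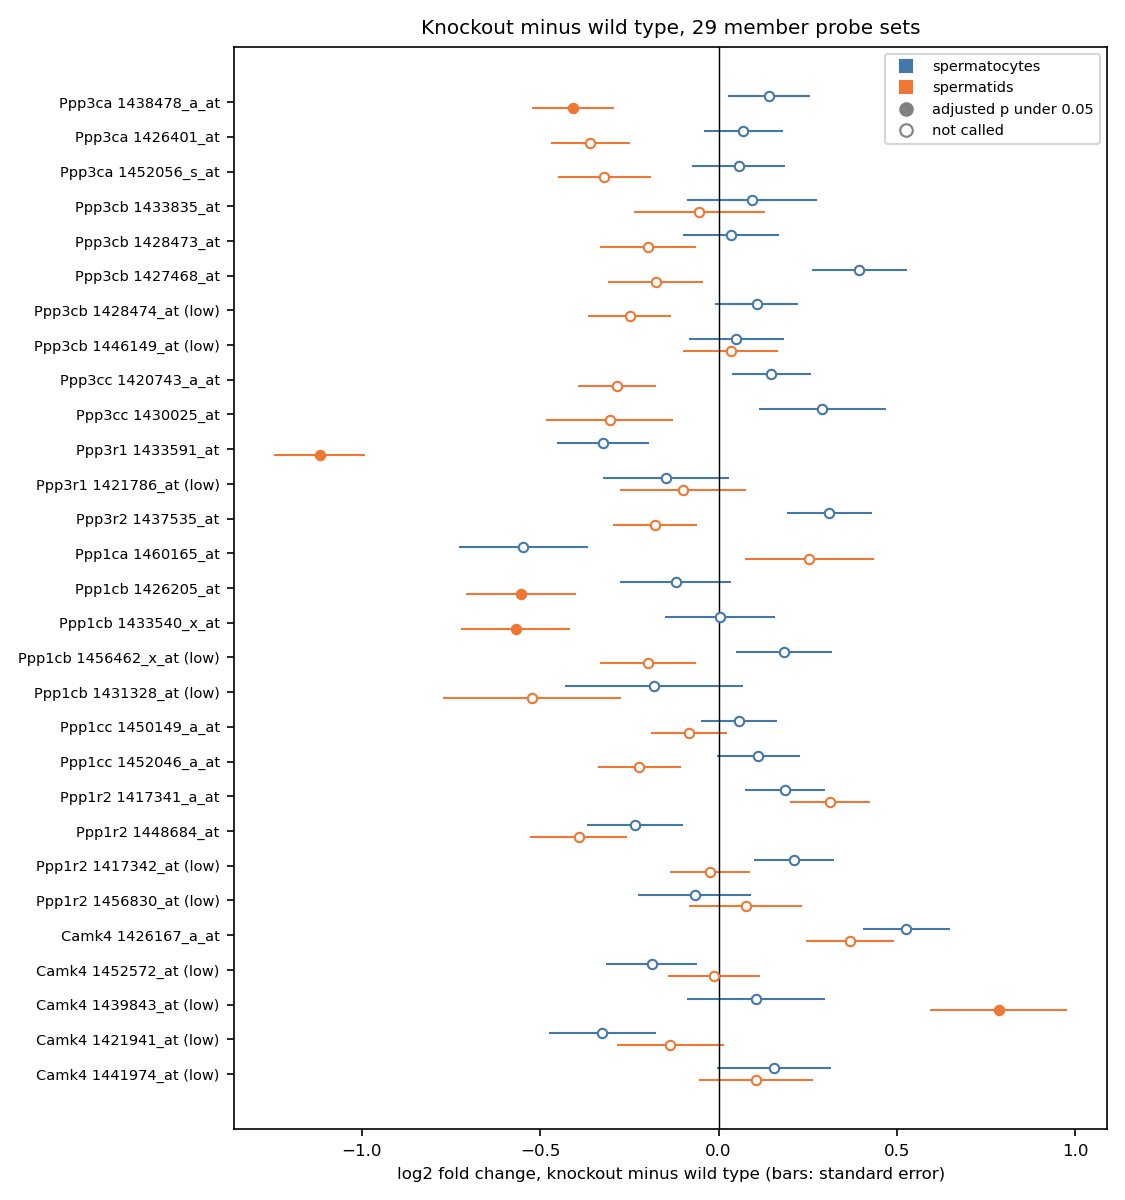
Log2 fold change, Hr6b knockout minus wild type, of the 29 member probe sets in spermatocytes (blue) and spermatids (orange); bars are standard errors from limma, filled points have an adjusted p under 0.05, and "low" marks a signal under 100 in all groups. No spermatocyte point is called, and Ppp3r1 lies farthest from 0 in spermatids, at -1.12.

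The difference between the knockout effect in spermatids and that in spermatocytes was called for 1 of the 29 probe sets, 3.45% against 4.6% of all probe sets, of which 3.14% were lower. Of those with a signal of 100 or more in a group it was called for 5.56% of members and 8.78% of all. This was Ppp3r1, where the effect was -0.32 in spermatocytes and -1.12 in spermatids, a difference of -0.79 (standard error 0.18, adjusted p = 0.0405). The call was made in 4 of 15 alternative settings, and the adjusted p ranged from 0.0269 to 0.131. It was lost under cyclic loess, quantile and median normalization, with the replicate number as a block, and without any array other than wild type spermatocyte replicate 1. By unadjusted p from limma, 10 of the 29 had a value under 0.05, 2 higher and 8 lower, against 22.1% of all probe sets. Of the 10, 9 were among the 18 members with a signal of 100 or more in a group. The share over all such probe sets was not taken by unadjusted p.

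The partners of these enzymes were read from lists of other genes, with 1 probe set per gene, of which 87 of 96 were analysed. In wild type spermatids 29 were higher and 26 lower, and in knockout spermatids, compared with knockout spermatocytes, 45 were higher and 27 lower. These calls made up 63.2% and 82.8% of the 87, against 53.3% and 63% of all probe sets. Among probe sets with a signal of 100 or more in a group 82.1% and 85.9% were called. Of the 87, 26 were low in every group. With equal medians 51 of the 87 were higher and 19 lower in wild type, and 56 and 18 in the knockout. Of 18 calcineurin regulators and partners, 2 rose and 8 fell in wild type, with a median of -0.15, and 7 of the 18 were low in every group. The median was 0.10 over all probe sets and -0.29 over those with a signal of 100 or more in a group. The transcription factor genes Nfatc3 and Nfat5, whose family is dephosphorylated by calcineurin, fell, with log2 fold changes of -2.75 and -2.35, as did Rcan1, a calcineurin inhibitor gene, with -2.19. Dnm1l, the gene for a mitochondrial fission enzyme that calcineurin dephosphorylates, rose by 1.62. Of 44 PP1 regulatory subunits and inhibitors, 13 rose and 14 fell in wild type, with a median of 0.02. Spz1, a transcription factor gene of germ cells, Gsk3b, whose kinase acts on the complex of PP1 and inhibitor-2, and Ppp1r32 rose by 5.19, 4.08 and 3.46, and Phactr4 fell, at -3.15.

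Of 10 other calmodulin-dependent kinases, 3 rose and 1 fell in wild type, with a median of 0.22. Camkv, Camkk2, which activates CaMKIV, and Camk1g rose by 1.16, 1.12 and 0.93, and Camk2g fell, at -1.45. Of 9 genes of the CREM pathway and the nuclear proteins of spermatids, 8 rose and 1 fell, with a median of 4.26. Fhl5, the coactivator of CREM, Tnp2, Creb3l4 and Tnp1 rose by 5.76, 5.07, 4.63 and 4.28, and Creb1 fell, at -1.59. Prm1, Prm2, Tnp1 and Tnp2 also stand in the list of spermatid markers. Of 6 other catalytic subunits of the same phosphatase family, 3 rose and 2 fell in wild type. Ppp5c fell, at -3.43. The paralogs Ppp2ca and Ppp2cb, catalytic subunits of PP2A, went in opposite directions, at -1.99 and 1.50, and Ppp4c rose by 0.53.

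Between genotypes, 7 of the 87 genes were higher and 2 lower in knockout spermatocytes. This was 10.3%, against 1.59% of all probe sets and 3.24% of those with a signal of 100 or more in a group. With only the spermatocyte arrays in the fit 0 of the 87 were called, and without 1 array at a time 4 to 7. The higher ones were Prm1, Prm2, Tnp1 and Tnp2 (1.91 to 2.42), Spz1 (1.36), Fhl5 (1.32) and Gsk3b (0.73), all of which rose from spermatocytes to spermatids in wild type. Their values moved with the spermatid markers given above, whose part was not tested. Ppp1r1c and Ppp1r9a, a pair of PP1 regulatory genes, were lower, at -0.80 and -0.78. In knockout spermatids 5 of the 87 were higher and 8 lower, 14.9% against 14.5% of all probe sets. Among probe sets with a signal of 100 or more in a group 27.1% were called. With equal medians 15 of the 87 were higher and 6 lower. Ppp1r1c had the largest fall, from 755 and 606 in wild type to 241 and 280.1 in the knockout, or -1.38 (standard error 0.15, adjusted p = 6.64e-04) on the log2 scale. Nfatc3 was lower at -1.00 (adjusted p = 0.00365) and Camk2g at -0.87 (adjusted p = 0.00326). The other lower genes were Phactr3, Ppp1r12b, Ppp1r15b, Ppp1r27 and Creb1, from -0.92 to -0.50. Nfatc2, Nfatc4, Ppp1r16b, Ppp1r18 and Camk1 were higher, by 0.45 to 0.68. Of these, Nfatc4, Ppp1r16b and Camk1 were low in every group. None of the 6 other phosphatase catalytic subunits was called in either genotype comparison.

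Genes with profiles most like each main probe set were sought among 10771 genes, by the root mean square difference (log2) over the 8 arrays after each profile was centred. For Camk4 these were Gzmn, Tbata and Cylc1, at 0.09 to 0.10. For Ppp3cb they were Orc2, Syncrip and Wdr92, at 0.08, and for Ppp1cb Tstd2, Polr2b and Plekhb2, at 0.08 to 0.09. The testis forms lay close to Clgn, Nsun7 and Larp1b for Ppp3cc and to Nr2c1, Rpl22l1 and Rnf19a for Ppp3r2, at 0.05 to 0.06. The level profile of Ppp1cc was nearest to Ran, Cox7a2 and AA467197, and that of Ppp3ca to Recql, Stk33 and Morc2b. For the rising Ppp1r2 probe set they were Lrrc27, Pigf and Gm11517. For Ppp3r1 and Ppp1ca the nearest were Clec4g and Ptgds, at 0.12 and 0.10. All these profiles share the same 8 arrays, and likeness over 4 groups is a description.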

How the data were processed

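Gene expression was measured with Affymetrix mouse genome arrays, 2 for each of 4 groups, and groups were read from the sample labels. The authors made RMA values from the scanned arrays and deposited them on the log2 scale, and these were used without further normalization; RMA and limma are named in their processing notes, versions are not given in the sources used here. Probe sets were named from the platform annotation, with older symbols updated through RefSeq. Of 45037 probe sets without controls, 34945 had 1 gene, 932 several and 9160 none. With limma 3.58.1, 1 mean per group was estimated from the 8 arrays together in R 4.3.3 (4 residual and 5.85 prior degrees of freedom), with Benjamini-Hochberg adjustment over 45037 probe sets and calls at an adjusted p under 0.05. The fit was tested on simulated data. Per gene, the probe set of highest mean log2 value served as the main one. Arrays have no read depth; their number limits the precision.

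Members and gene lists were chosen with earlier results of these data known. Text names all members, Ube2b, list genes called between genotypes, and for stages the 4 called genes of largest change per list with a signal of 100 or more in a group; the 3 genes of most like profile were added. Alternatives were cyclic loess, quantile and equal-median scaling, a filter of 100 on at least 4 arrays, only the arrays compared, the replicate number as a block, an intensity trend, and leaving out each array. Promoter windows are from RefSeq (GRCm38.p6), and no set tests were run. The windows of Ppp3ca, Ppp3cc, Ppp1ca and Camk4 were not analysed, so the counts of sequence matches leave these genes out. The other 9 of the 96 listed pathway genes were not analysed here.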

Additional observations from a re-analysis of the deposited data

Results flagged for a closer look

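For 14 of the 29 member probe sets and 87 pathway genes the effect of the knockout differed between spermatids and spermatocytes at an adjusted p under 0.05 from limma's interaction test, given here as the effect in spermatids minus that in spermatocytes (log2). Groups of 2 arrays are too small for a search for single outlying arrays. The only member was Ppp3r1, with -0.79, and the other 13 were pathway genes. Their share was 14.9%, against 4.6% of all probe sets and 8.78% of those with a signal of 100 or more in a group. The 13 became 5 under cyclic loess and 0 to 10 without 1 array at a time. Among genes of the pathway lists, it was 0.72 for Nfatc2, 0.71 for Nfatc4, 0.68 for Ppp1r16b, 0.74 for Ppp1r18 and 0.76 for Camk1, each called higher in knockout spermatids. It was -0.84 for Ppp1r15b, -1.24 for Phactr3 and -0.89 for Creb1, each called lower there. For Spz1, Prm1, Prm2, Tnp1 and Tnp2, which were called higher in knockout spermatocytes and not in knockout spermatids, it was -0.98, -1.72, -1.90, -1.99 and -1.97. Their values moved with the summed spermatid markers, and the part of spermatid RNA was not tested.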

How the results depend on the processing

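Over all member probe sets, comparisons and alternatives, 2028 values kept their sign and their side of the threshold, 95 changed sign without a call in either setting, 70 lost a call, 38 gained one and 5 turned their sign with a call in 1 of the settings. The 5 were stage differences in the knockout: 0.50 under cyclic loess and 0.53 with equal medians for Ppp3cc, and with equal medians 0.22 for a low Ppp3cb probe set, 0.40 for Ppp1cc and 0.21 for a low Ppp1r2 probe set. The number of calls between stages stayed within 1.5 times, but with equal medians the members split into 12 higher and 10 lower in wild type and 11 and 11 in the knockout, and the pathway genes into 51 and 19 and 56 and 18; under the filter 14 members were called in each genotype. In knockout spermatocytes 1 member was called under the filter on low signals, and 0 pathway genes were called with only the arrays compared. In knockout spermatids 3 members were called under cyclic loess and 8 with an intensity trend, and 21 pathway genes with equal medians. The difference between knockout effects was called for 0 members under cyclic loess, quantile and equal-median scaling, 2 under the filter and 4 with the trend, and for 5 pathway genes under cyclic loess. The cause was not tested.

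Without 1 array at a time, the called members numbered 17 to 21 for the stages in wild type, 19 to 22 in the knockout, 0 for knockout spermatocytes, 1 to 5 for knockout spermatids and 0 to 1 for the difference between them. The called pathway genes numbered 51 to 57, 65 to 73, 4 to 7, 7 to 13 and 0 to 10. Paralog shifts ran from 0.54 to 0.63 (Ppp3cc-Ppp3ca), 3.21 to 3.42 (Ppp3cc-Ppp3cb), -0.93 to -0.57 (Ppp3r2-Ppp3r1, which passed without knockout spermatid replicate 2), 1.39 to 1.73 (Ppp1cc-Ppp1ca), 3.19 to 3.37 (Ppp1cc-Ppp1cb) and -1.90 to -1.57 (Ppp1cb-Ppp1ca). With wild type arrays alone, Ppp1cc-Ppp1ca was 2.00 and Ppp1cb-Ppp1ca -1.13, and quantile normalization gave -0.95 for Ppp3r2-Ppp3r1.

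The labels do not say whether the replicate numbers pair the samples. Deviations of same-numbered arrays, taken over probe sets, correlated at -0.23 to 0.22 over the 6 pairs of groups, which cannot decide it. The value was 0.22 between wild type spermatocytes and knockout spermatids. Between wild type spermatids and these groups it was -0.21 and -0.23, in that order. With the number as a block, 20 members were called for the stages in each genotype, 0 in knockout spermatocytes, 4 in knockout spermatids and 0 for the difference. Permuting stages only within a replicate number left the paralog shifts at 0.59, 3.30, 1.53, 3.28 and -1.75 but allowed no exact p below 0.0556, so that by construction none passed. With the numbers of the wild type spermatids crossed, which was added once values had been seen, the members called were 20, 21, 0, 5 and 1.

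With 2 arrays per group, small differences can be missed.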
